A study of Paxillus involutus ATCC 200175 with 12 samples.

Results

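The 29 features described here are transcripts of the ectomycorrhizal fungus Paxillus involutus whose signal was highest when mycelium on organic matter received glucose and no ammonium. A feature is 1 transcript sequence on the array, summarised from 10 probes in each of the 29. They were chosen from the group means of the log2 values: the mean over all 12 arrays had to be at least 6, and the mean with glucose alone had to exceed each of the other 3 group means by at least 0.5. Of 12214 features measured, 11499 met the first condition and 29 met both. The amount by which the mean with glucose alone exceeds the highest other group mean is called the lead below.

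Axenic cultures on glass beads grew for 9 days, went without nitrogen for 24 h and were then kept with an extract of maize compost for 7 days. The extract was made with hot water, freed of particles with a 0.2 um filter and of small compounds with a 10 kDa membrane. All 4 groups of 3 arrays carried it: OM+G had glucose added, OM+N+G glucose and ammonium, OM+N ammonium, and OM neither. The fungus was strain ATCC 200175 in every group, grown without a host plant, and its RNA was read in 1 colour on the 12 subarrays of 1 slide. Each group occupied its own 3 consecutive subarrays, so position on the slide and group cannot be told apart. The design text speaks of 3 separate cultures, but the labels do not tie each array to a culture of its own, and p-values measure only the spread between these arrays, part of which may be technical.

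Ectomycorrhizal fungi receive sugar from the roots of their host trees and take up nitrogen from soil organic matter, part of which they pass to the tree. In fungi generally, ammonium is a preferred nitrogen source, and genes for the use of other nitrogen sources are often held down while it is plentiful. Glucose likewise governs many genes of carbon use. The study asked how the supply of both nutrients governs the use of litter by this fungus. The features carry running numbers in place of gene names, and 0 of the 29 matched an entry of the gene table of this fungus's genome assembly. No function or sequence is given for that reason.

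Peaks of this size were uneven among the groups. Under the same rule with the groups exchanged, 86 features had their peak in OM+N+G, 1 in OM and 0 in OM+N, beside the 29 of OM+G. With no minimum for the lead, 2581 of the 11499 features (22.4%) were highest in OM+G, 5275 in OM+N, 2825 in OM+N+G and 818 in OM. The 29 thus form the far end of the OM+G class. Their leads ran between 0.51 and 1.23 with a median of 0.61, while the median lead over the 11499 features was -0.18. Signals were ordinary: the mean over 12 arrays lay between 10.71 and 12.83, the median was 11.98 against 11.83 for the 11499 features, and 18 of the 29 lay above that median. The random-sequence control read 3.66 to 3.80, far under every one of them.

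**Figure D1:**
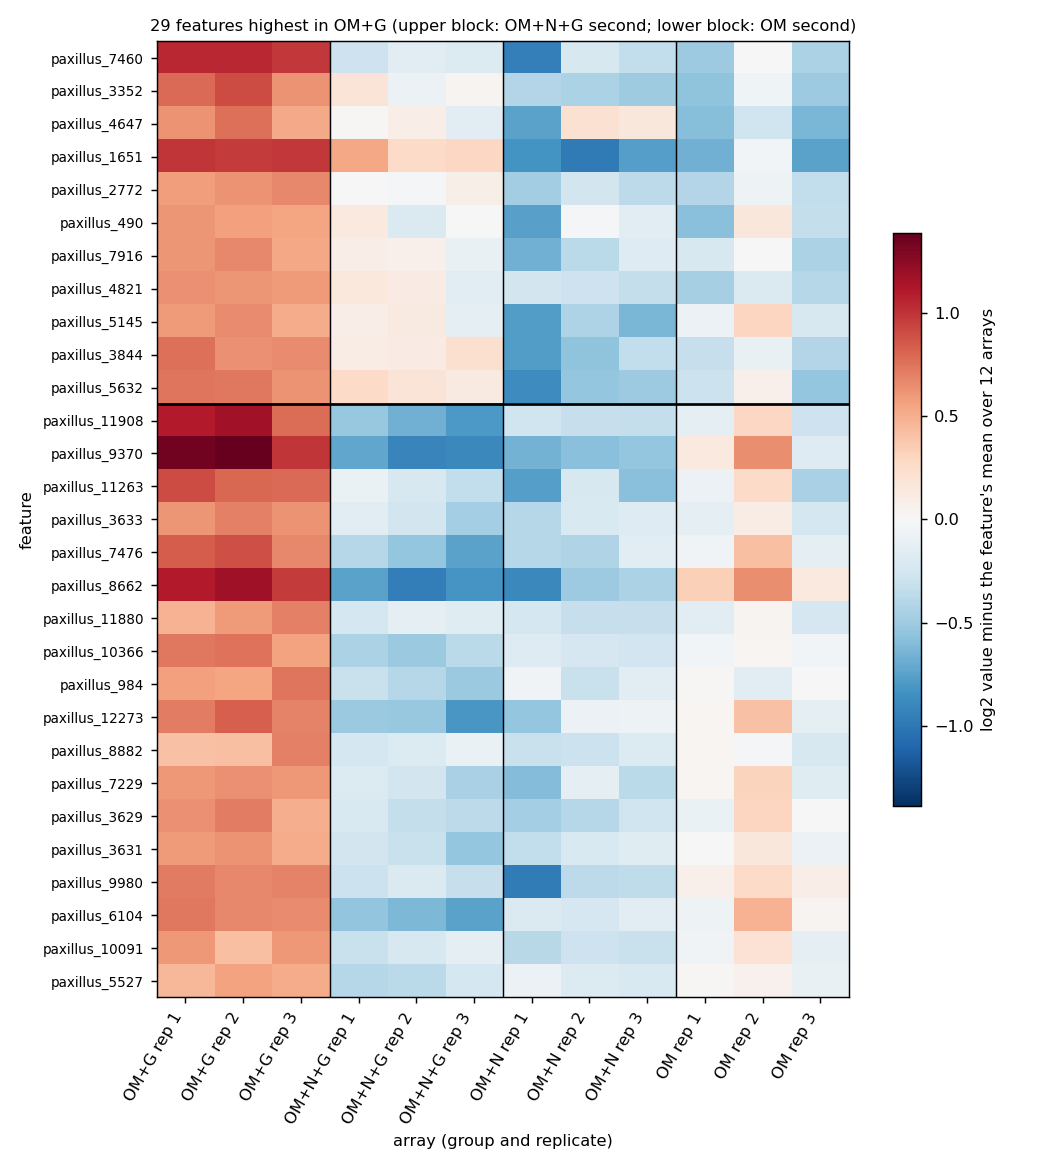
Heat map of the 29 features (rows) on the 12 arrays (columns, by group and replicate); colour is the log2 value minus the feature's mean over 12 arrays. The 11 features above the line had OM+N+G as their second highest group and the 18 below it had OM; the OM+G columns are the reddest in every row, and OM replicate 2 is redder than the other OM columns in most rows.

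paxillus_7460 had the largest lead. It read 13.30, 13.30 and 13.24 on the log2 scale in OM+G, against 11.97, 12.11 and 12.07 in OM+N+G, 11.31, 12.04 and 11.92 in OM+N, and 11.76, 12.27 and 11.82 in OM. The OM+G arrays lay close together and nearly 1 unit above the highest of the 9 others, with a gap of 0.97. The mean lead of 1.23 is a 2.35-fold difference. The arrays of the other 3 groups overlapped, and no difference between these groups was called with all arrays. Without OM+N replicate 2, OM+N+G was called above OM+N by 0.43 (limma adjusted p = 0.0339), and with OM+N replicate 1 and OM replicate 2 left out together OM+N+G was called above OM by 0.26 (limma adjusted p = 0.00361).

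paxillus_11908 and paxillus_9370 followed with leads of 1.06 and 1.04, which are 2.08-fold and 2.06-fold. paxillus_11908 read 12.41, 12.47 and 12.09 in OM+G, against 10.78, 10.64 and 10.51 in OM+N+G, 11.03, 10.99 and 10.98 in OM+N, and 11.19, 11.59 and 11.02 in OM. paxillus_9370 read 12.98, 13.03 and 12.63 in OM+G, against 10.92, 10.72 and 10.75 in OM+N+G, 10.99, 11.06 and 11.10 in OM+N, and 11.77, 12.29 and 11.47 in OM. In both, the arrays with both nutrients were the lowest, and OM came second. Their spread within OM+G was the widest of the 29, with SDs of 0.21 and 0.22 (n = 3), and replicate 3 was the low array in both.

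paxillus_11263 was the remaining feature with a lead over 0.9. Its OM+G arrays read 13.22, 13.11 and 13.10, against 12.22, 12.09 and 11.97 in OM+N+G, 11.54, 12.09 and 11.73 in OM+N, and 12.23, 12.58 and 11.86 in OM. The next 4 leads were close to each other. paxillus_3633 led by 0.73, paxillus_7476 and paxillus_3352 by 0.72 each, and paxillus_8662 by 0.71. These 4 differ in what lies below the peak: paxillus_3352 was second highest with both nutrients, at 11.88 ± 0.13 in OM+N+G (SD, n = 3), while the others were second highest in OM, with paxillus_8662 at 12.65 ± 0.26.

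**Figure D2:**
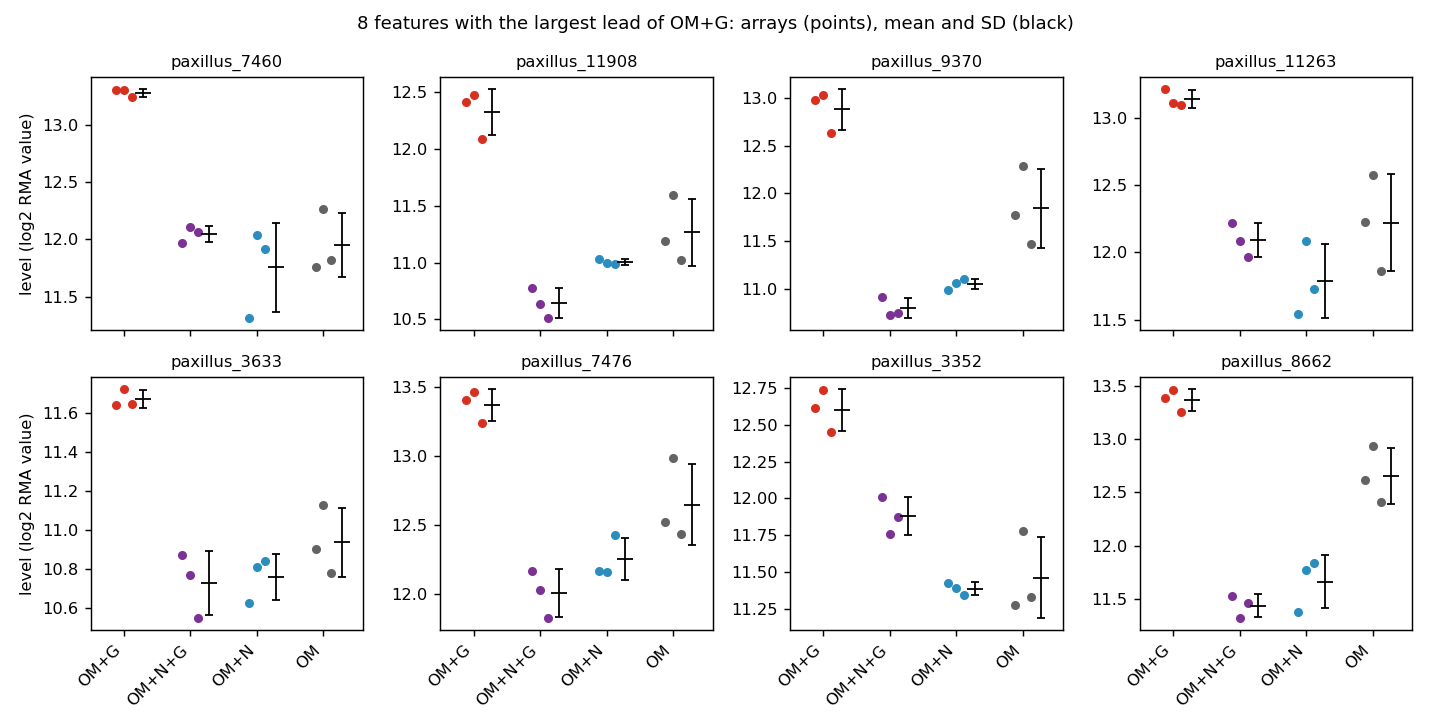
Levels (log2 RMA value) of the 8 features with the largest lead in the 4 groups; coloured points are single arrays, and the black mark and bar are the group mean and SD (n = 3). In each panel the 3 OM+G points lie above all other points, by a gap between 0.26 in paxillus_7476 and 0.97 in paxillus_7460.

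At the other end, paxillus_10091, paxillus_5527 and paxillus_5632 were just inside the rule, with leads of 0.53, 0.52 and 0.51. paxillus_3846, paxillus_8739 and paxillus_7676 were just outside it, each with a lead of 0.49. The boundary thus cuts through a continuous range. paxillus_8739 differed from its neighbours at the boundary in its low OM+N level, 11.69 ± 0.64 against 12.87 ± 0.36 in OM (SD, n = 3), to which OM+N replicate 1 contributed the lowest value of 10.95.

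For all 29 features the lowest OM+G array lay above the highest of the other 9 arrays, as it did for 5.64% of all features. limma's test called all 29 higher in OM+G than in OM and than in OM+N, against 29.8% and 31.5% of all features, and 27 higher in OM+G than in OM+N+G, against 1.92%. The interaction, here the glucose change in the presence of ammonium less the glucose change in its absence, was called negative for 13 of the 29, against 0.36% of all features. The rule chose the features by these very differences, so the counts describe the choice and support nothing. The sizes were moderate: the median difference was 0.72 between OM+G and OM, 1.00 between OM+G and OM+N, and 0.91 between OM+G and OM+N+G.

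Membership rested on single arrays for some of the 29. When each array was left out in turn, 17 features stayed above the lead of 0.5 in all 12 cases and 12 dropped out in at least 1. Between 23 features, without OM replicate 3, and 36, without OM replicate 2, then met the rule. Features that dropped out had a lead of at most 0.65, that of paxillus_4647, which left without OM+N replicate 1. The 11 features with larger leads, paxillus_7460 to paxillus_984, stayed in every case.

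What the rule leaves free is the order of the other 3 groups, since it sets only a common ceiling for them. OM+N+G was second highest in 11 features and OM in 18, and OM+N in none. The lowest group was OM+N+G in 11, OM+N in 16 and OM in 2. The comparisons below are between these 3 groups. They come from limma's fit to all 12 arrays, with p-values adjusted by Benjamini-Hochberg over all 12214 features and a call at an adjusted p under 0.05. Each pair of these comparisons shares 1 group of arrays.

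**Figure D3:**
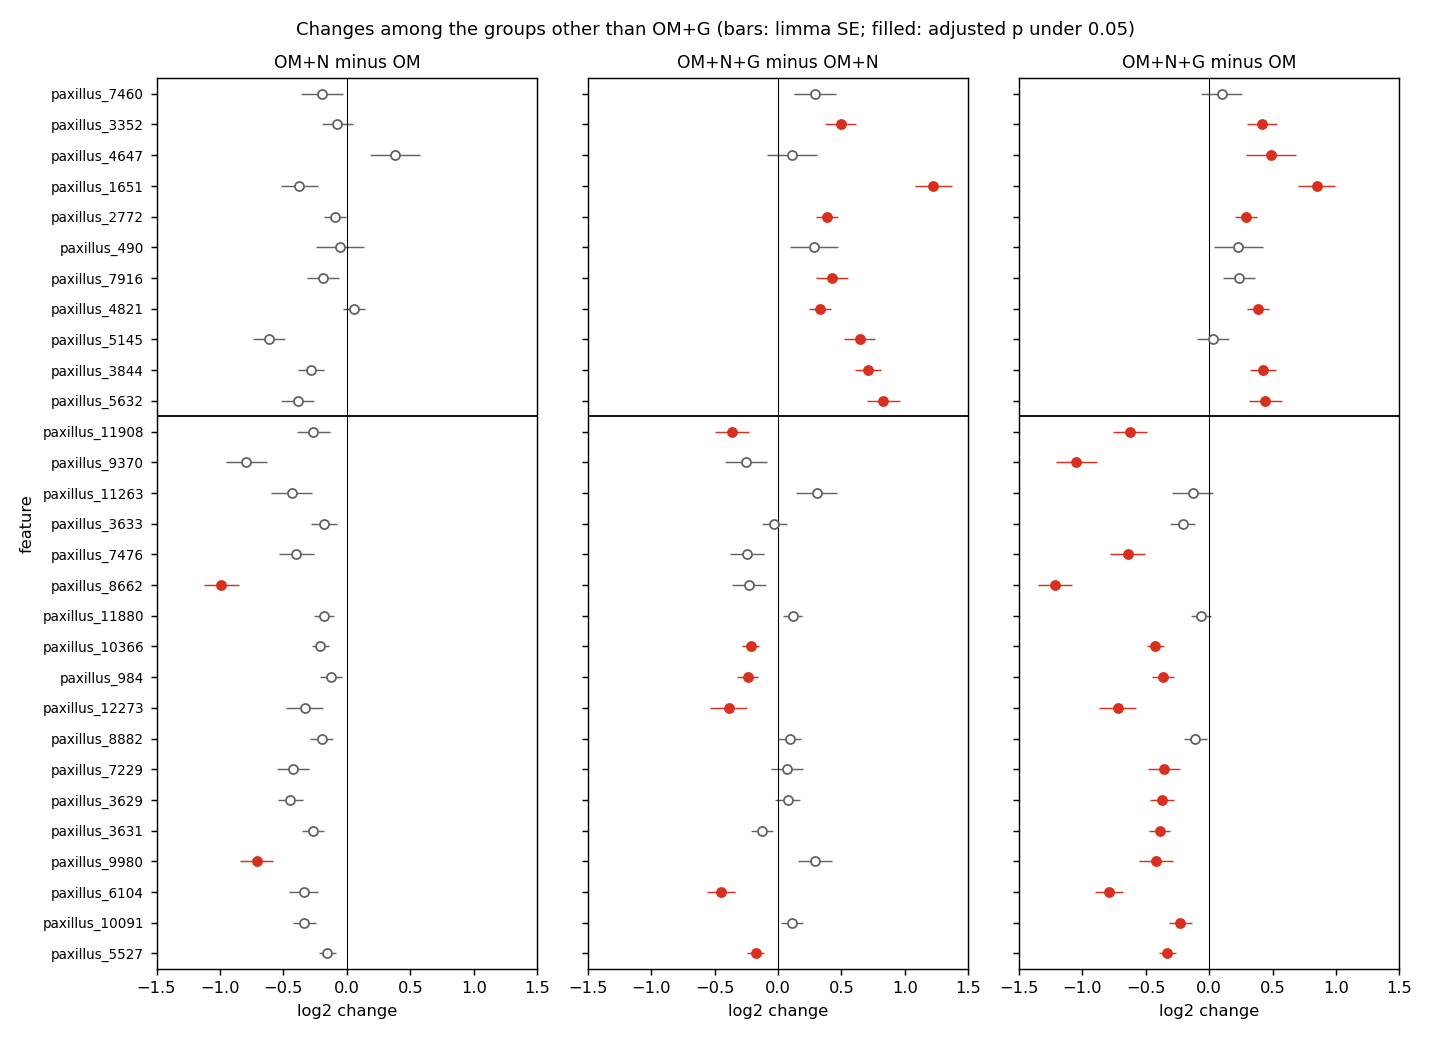
Differences on the log2 scale between the groups other than OM+G for the 29 features: OM+N minus OM (left), OM+N+G minus OM+N (middle) and OM+N+G minus OM (right); points are limma estimates, bars 1 SE, and filled red points have an adjusted p under 0.05. Features above the line are those with OM+N+G second highest, which makes their sign positive in the middle and right panels. Those below it have OM second highest, which makes their sign negative in the left and right panels. Filled points number 2 on the left, 14 in the middle and 21 on the right, and the panels share arrays.

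The first of these comparisons asks what ammonium did on organic matter without added glucose. paxillus_8662 read 11.38, 11.77 and 11.84 in OM+N, against 12.61, 12.93 and 12.41 in OM. It fell by 0.99 (SE 0.13, limma adjusted p = 0.00493), and the arrays did not overlap. paxillus_9980 read 11.84, 12.45 and 12.46 in OM+N, against 12.88, 13.08 and 12.91 in OM, and fell by 0.71 (SE 0.13, limma adjusted p = 0.0377). These were the 2 features of the 29 that were called lower, against 0.246% of all features, and 0 were called higher, against 0.0901%. The unadjusted p was under 0.05 for 19 of the 29 and for 15.2% of all features. The rule used the means of both groups, so these counts are a description only.

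Both calls were sensitive to the fit. With the 6 arrays of this comparison alone, the limma adjusted p was 0.116 for paxillus_8662 and 0.341 for paxillus_9980. paxillus_8662 kept its call when each of the 12 arrays was left out. paxillus_9980 lost it in 8 of these refits, with limma adjusted p-values of 0.187 without OM replicate 2, 0.112 without OM replicate 1 and between 0.0598 and 0.0697 without each of the OM+G and OM+N+G arrays.

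Beyond the calls, 27 of the 29 features were lower in OM+N than in OM, with a median difference of -0.26, while the median over all features was 0.03. In 12 of the 29 every OM+N array lay below every OM array, against 6.31% of all features, and in 0 above, against 9.58%. A set closer to the 29, chosen after their values were seen, is that of the 1320 other features with a mean of at least 6 and OM+G at least 0.5 above both OM and OM+N. Of these, 88.2% were lower in OM+N than in OM, with a median of -0.16, and 15.8% did not overlap; the difference between the sets was not tested. paxillus_4647 and paxillus_4821 were the exceptions among the 29, with differences of 0.38 and 0.06 that were not called.

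A pair of arrays moved with this result. OM replicate 2 was the highest OM array in 27 of the 29 features, as in 94.3% of the 1320 others, and exceeded the mean of the other OM arrays by a median of 0.35. Over the 11499 features it was the highest in 34.9%, with a median difference of -0.04. OM+N replicate 1 was the lowest OM+N array in 19 of the 29, against 25.9% of the 11499 features. In the 29 it lay below the other OM+N arrays by a median of 0.16. Without both arrays the median OM+N minus OM difference was -0.14 over the 29, against -0.01 over the 1320 others, and 22 of the 29 were still negative. paxillus_8662 then fell by 0.71 (SE 0.10, limma adjusted p = 0.00803) and paxillus_9980 by 0.44 (SE 0.06, limma adjusted p = 0.0098). paxillus_4647 was then called higher in OM+N, by 0.80 (limma adjusted p = 0.00432), and without OM+N replicate 1 alone by 0.69 (limma adjusted p = 0.0195).

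**Figure D4:**
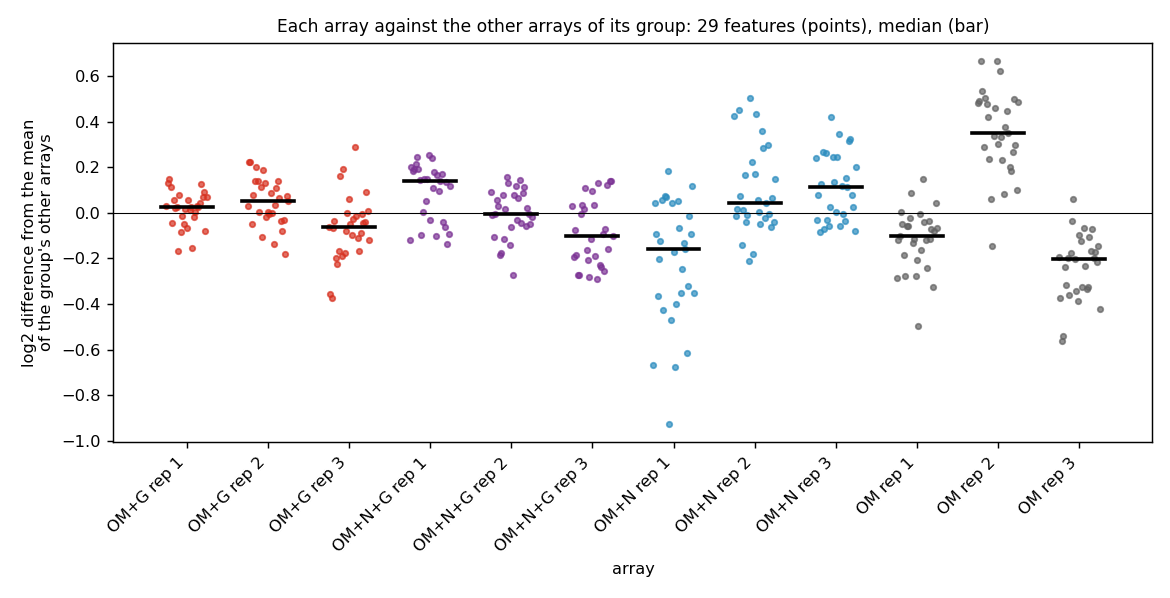
Difference on the log2 scale between each array and the mean of the other arrays of its group for the 29 features (points), with the median as a bar. OM replicate 2 stands out upward with a median of 0.35, OM+N replicate 1 reaches down to -0.93, and the medians of the OM+G arrays lie between -0.06 and 0.05.

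Within the groups the 29 features were more variable than most. Their SD pooled over the 4 groups had a median of 0.18, against 0.09 over the 11499 features and 0.14 over the 1320 others that were raised in OM+G. The excess was smallest in OM+G, with a median SD of 0.07 against 0.06 over the 11499 features, and largest in OM, with 0.22 against 0.10. The 1320 others had a like median SD in OM, of 0.20. paxillus_1651, which had the smallest SD in OM+G of the 29, shows the contrast: its OM+G arrays read 13.02, 13.00 and 13.01, its OM arrays 11.36, 11.99 and 11.29. By median SD, OM+G was thus the tightest group of the 29 and OM the widest. The same order held over the 11499 features, with 0.06 in OM+G, 0.07 in OM+N+G, 0.08 in OM+N and 0.10 in OM. It did not hold in every feature: in paxillus_10366 the SD was 0.11 in OM+G and 0.04 in OM.

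The second comparison asks what glucose did when ammonium was present. Of the 29 features, 8 rose in OM+N+G over OM+N and 6 fell, which is 27.6% and 20.7%, against 32.7% and 40.7% of all features. The share that rose is near the background. The median difference was 0.11, against -0.06 over all features, with 18 of the 29 positive and 11 negative. Arrays lay apart upward in 10 and downward in 5, against 33.7% and 42.2% of all features. The rule itself kept out features whose OM+N+G, OM+N or OM level came within 0.5 of OM+G. It thus set the same ceiling for both groups of this comparison and of the one against OM. The counts of rises and falls are a description only.

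paxillus_1651 rose most. It read 12.56, 12.30 and 12.32 in OM+N+G, against 11.20, 11.05 and 11.26 in OM+N, a difference of 1.22 (SE 0.15, limma adjusted p = 8.74e-06), and the arrays lay far apart. paxillus_5632 read 12.89, 12.80 and 12.74 in OM+N+G, against 11.74, 12.08 and 12.11 in OM+N (log2 difference 0.83, SE 0.13). paxillus_3844 rose by 0.71 (SE 0.10) and paxillus_5145 by 0.64 (SE 0.12). In these 4 features the level with both nutrients was above that with ammonium alone, and the level in OM+G was higher still.

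Among the 6 that fell the changes were smaller. paxillus_6104 read 10.54, 10.47 and 10.35 in OM+N+G, against 10.89, 10.86 and 10.95 in OM+N, and fell by 0.45 (SE 0.11, limma adjusted p = 0.00271). paxillus_12273 fell by 0.39 (SE 0.15), paxillus_11908 by 0.36 (SE 0.13) and paxillus_984 by 0.24 (SE 0.08). Arrays overlapped between the groups in paxillus_12273, where OM+N+G replicate 1 at 11.95 lay above OM+N replicate 1 at 11.92, and in paxillus_984, where OM+N+G replicate 1 and OM+N replicate 2 both read 11.67. The last 2 were paxillus_10366 and paxillus_5527, with differences of -0.21 and -0.18.

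Each of these 6 calls of a fall was lost under another normalization or when 1 array was left out. The 8 rises kept their call under every alternative in which they were fitted. After cyclic loess, limma's adjusted p was 0.0916 for paxillus_6104 and 0.234 for paxillus_11908, and paxillus_10366 turned to 0.035 (adjusted p = 0.666). Leaving out 1 array ended the call of paxillus_12273 without OM+N replicate 2 (limma adjusted p = 0.102), OM+N replicate 3 (0.11) or OM+N+G replicate 3 (0.118). It ended that of paxillus_984 without OM+N replicate 1 (0.0943), OM+N replicate 3 (0.0552) or OM+N+G replicate 3 (0.0893), and that of paxillus_10366 without OM+N+G replicate 2 (0.0504). For paxillus_11908 the arrays were OM+N replicate 1 (0.0594), OM+N+G replicate 2 (0.0563) and OM+N+G replicate 3 (0.0954). For paxillus_5527 they were OM+N replicate 1 (0.109), OM+N+G replicate 1 (0.101) and OM+N+G replicate 2 (0.0842).

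The third comparison sets both nutrients against organic matter alone. Of the 29 features 14 fell in OM+N+G relative to OM and 7 rose, which is 48.3% and 24.1%, against 36.3% and 30.7% of all features. The median difference was -0.21, against -0.02 over all features. Without OM replicate 2 and OM+N replicate 1, 13 of the 29 were called lower and 10 higher, against 38.4% and 32.2% of all features. The median difference was then -0.11. Arrays lay apart downward in 13 and upward in 6, against 37.4% and 32.2% of all features. paxillus_8662 fell most: it read 11.53, 11.32 and 11.46 in OM+N+G, against 12.61, 12.93 and 12.41 in OM, a change of -1.21 (SE 0.13, limma adjusted p = 8.34e-06). paxillus_9370 changed by -1.05 (SE 0.16, limma adjusted p = 0.000107), paxillus_6104 by -0.79 (SE 0.11) and paxillus_12273 by -0.72 (SE 0.15). By group means, glucose alone went with the highest level of the design in these 4 features and glucose with ammonium with the lowest. OM+N+G was not called below OM+N in paxillus_8662 (limma adjusted p = 0.146) or paxillus_9370 (limma adjusted p = 0.177). Arrays of these 2 groups overlapped in paxillus_8662 and paxillus_12273.

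In the opposite direction, paxillus_1651 rose by 0.85 (SE 0.15, limma adjusted p = 0.000224). paxillus_4647 read 12.17, 12.24 and 11.99 in OM+N+G, against 11.55, 11.87 and 11.51 in OM, and rose by 0.49 (SE 0.20, limma adjusted p = 0.0436). paxillus_5632 rose by 0.44 (SE 0.13) and paxillus_3844 by 0.42 (SE 0.10). The arrays of paxillus_4647 did not overlap, but its call was the weakest of the 21: without each of OM replicates 1 and 3 and each OM+G and OM+N+G array, limma's adjusted p lay between 0.0501 and 0.127. The call was also lost under every other normalization and with trend and robust moderation, at limma adjusted p-values between 0.0622 and 0.0896. The call of paxillus_7229 (-0.35) was lost without OM replicate 2 (limma adjusted p = 0.112) or OM+N+G replicate 3 (0.1). That of paxillus_10091 (-0.23) was lost without OM replicate 2 (0.162), OM+N+G replicate 1 (0.131) or OM+N+G replicate 2 (0.0779), and after cyclic loess, where the difference was -0.12 (0.323). It was also lost after quantile normalization (0.275), with the 6 arrays of the comparison alone (0.0683) and with a replicate block (0.0517).

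Put side by side, the calls sort the 29 features into a few profiles below the common peak. In 6 features, among them paxillus_1651, paxillus_5632 and paxillus_3844, OM+N+G was called higher than both OM+N and OM. In another 6, among them paxillus_6104, paxillus_12273 and paxillus_11908, OM+N+G was called lower than both. In 2, paxillus_8662 and paxillus_9980, both ammonium groups were called lower than OM. A further 6, with paxillus_9370 and paxillus_7476 among them, were called lower in OM+N+G than in OM with no other call. The threshold decides some of these places. The OM+N minus OM difference of paxillus_9370 was -0.79 (limma adjusted p = 0.0699), with arrays that did not overlap. That is larger than the called -0.71 of paxillus_9980, and it was called in 3 of 21 alternatives. For 6 features none of the 3 comparisons gave a call: paxillus_7460, paxillus_11263, paxillus_3633, paxillus_11880, paxillus_490 and paxillus_8882. The remaining 3 were paxillus_5145 and paxillus_7916, called higher in OM+N+G than in OM+N, and paxillus_4647, called higher in OM+N+G than in OM.

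The brightest of the 29 by mean over all arrays were paxillus_490 and paxillus_9980, and the dimmest paxillus_10366 and paxillus_3633, in signals that depend on the probes as well as on the transcript. paxillus_490 averaged 13.41 ± 0.04 in OM+G, 12.81 ± 0.17 in OM+N+G, 12.52 ± 0.40 in OM+N and 12.58 ± 0.38 in OM (SD, n = 3). paxillus_10366 averaged 11.40 ± 0.11 in OM+G, 10.27 ± 0.07 in OM+N+G, 10.49 ± 0.04 in OM+N and 10.70 ± 0.04 in OM. The lead of the dim feature, at 0.70, was larger than that of the bright one, at 0.60, and its arrays were tighter outside OM+G.

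Several of the 29 stood close together in the running numbers of the features. paxillus_3629, paxillus_3631 and paxillus_3633 formed 1 run with every other number. No measured feature carried the numbers between them, so they were consecutive among the features measured. paxillus_3629 averaged 12.54 ± 0.10 in OM+G, 11.61 ± 0.08 in OM+N+G, 11.54 ± 0.10 in OM+N and 11.98 ± 0.21 in OM (SD, n = 3). paxillus_3631 averaged 12.42 ± 0.05, 11.47 ± 0.15, 11.60 ± 0.09 and 11.86 ± 0.12 in the same groups, and paxillus_3633 averaged 11.67 ± 0.05, 10.73 ± 0.17, 10.76 ± 0.12 and 10.94 ± 0.18. All 3 shared the order of OM+G first and OM second, and OM+G exceeded OM+N+G by 0.93 in paxillus_3629, 0.95 in paxillus_3631 and 0.94 in paxillus_3633.

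A few neighbours in the numbering that missed the rule came near it. Of 46 direct neighbours with a mean of at least 6, 4 had a lead of at least 0.3, as had 6 of the 55 at a distance of 2, where 4 of the 6 are counts within the run just described. The median lead of the neighbours was -0.13 at a distance of 1 and -0.14 at a distance of 2. Over all 11499 features 134 (1.17%) had such a lead, and at a distance of 3 it was 0 of 48. paxillus_5146, next to paxillus_5145, had a lead of 0.46, paxillus_7917 next to paxillus_7916 one of 0.47, and paxillus_3846 near paxillus_3844 one of 0.49. paxillus_1652, next to paxillus_1651, had 0.37 and paxillus_3351, next to paxillus_3352, had 0.34. These neighbours were chosen after their values were seen. What the running numbers stand for is not given in the sources used here, so whether neighbours are adjacent genes, parts of 1 transcript or like sequences was not tested.

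**Figure D5:**
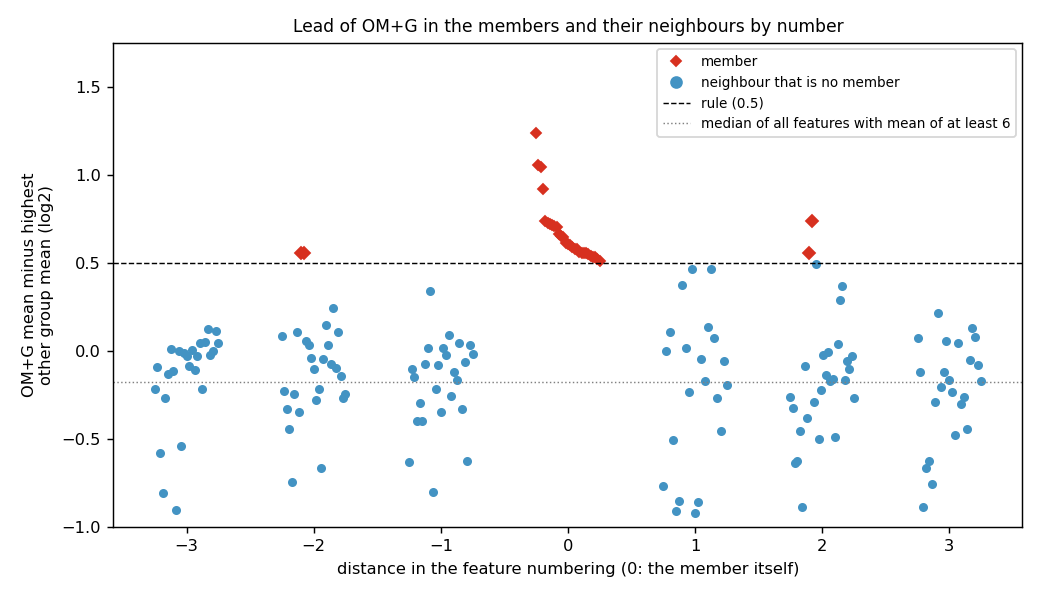
Lead of OM+G (its mean minus the highest other group mean, log2) for the 29 features at distance 0 and for features 1 to 3 numbers away with a mean of at least 6. Diamonds meet the rule and circles do not; the dashed line is the rule's 0.5 and the dotted line the median of -0.18 over the 11499 features, and 4 circles or diamonds at distance 1 and 6 at distance 2 lie at or above 0.3.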

How the data were processed

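Expression was measured on 12 single-colour NimbleGen subarrays, 3 per group. The deposited log2 values are RMA values that the authors computed (per the submitters' processing notes, which name no software version), and the log2 scale was read from their range. The deposited series table and the array files held the same log2 values. A further column of deposited scores, whose meaning is not stated, was not used. RMA makes the distributions of arrays alike, so changes are relative to the other features. Precision is limited by the number of arrays.

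Groups came from the titles. Without the random-sequence control, 1 mean per group was fitted to 12214 features with limma 3.58.1 under R 4.3.3, using default eBayes moderation. Adjusted p-values in the text are limma's, and SE is its moderated standard error. Data were simulated with 200 changed features among 12214. Changes of 0.5 were recovered in 80% of cases for OM+N minus OM, 82% for OM+N+G minus OM+N and 88% for OM+N+G minus OM. Changes of 0.25 were recovered in 32%, 20% and 14% of cases, in the same order. The features chosen by the rule had a median pooled SD of 0.18, against 0.09 over features with a mean of at least 6. The simulation covered the whole array, so its shares do not give the recovery for these more variable features. The features and lists were chosen with earlier results of these data known. Named were the 8 largest leads, the 3 features just inside and the 3 just outside the rule, the 2 brightest and 2 dimmest, the 4 largest called changes each way per comparison, the 2 widest SDs in OM+G and runs in the numbering; other names were chosen after their values were seen. Planned gene lists (nitrogen transport, peptidases, carbohydrate-active enzymes) were not used, since 0 of 12214 features could be named. Alternatives were other normalizations, a filter on dim features, other moderation, array weights, subsets of arrays, a replicate block and other minimum leads.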

Additional observations from a re-analysis of the deposited data

How the results depend on the processing

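The rule gave 29 features, of which limma called 2 between OM+N and OM, 14 between OM+N+G and OM+N, and 21 between OM+N+G and OM. A lead of 0.4 gave 61 features and one of 0.6 gave 16. Other normalizations gave 37 (cyclic loess, 28 of them shared), 28 (quantile, 26 shared) and 23 (75th percentile, all shared). Between OM+N and OM the count was 5 without the dimmest 25% of features, 4 with trend and robust moderation, 4 with array weights and 0 with the 6 arrays of the comparison, where fewer arrays enter. The other 2 comparisons stayed within 1.5 times their counts under all alternatives run, at 11 to 18 and 19 to 23. The split by direction moved more. Between OM+N+G and OM+N, 8 rises and 6 falls became 11 and 4 after cyclic loess. After quantile normalization they became 11 and 3. Each of these normalizations shared 11 of the 14 calls. Under both, paxillus_10091, paxillus_11880 and paxillus_8882 were added as rises. Leaving out 1 array gave 23 to 36 features under the rule and 1 to 4, 11 to 16 and 19 to 21 calls. When OM replicate 2 and OM+N replicate 1 were both left out, the numbers were 35, 3, 14 and 23. With the replicate block 3, 15 and 20 were called. Same-numbered arrays deviated together with r over 0.1 in 4 of 18 pairs (r -0.31 to 0.43). Deviations within groups of 3 arrays cannot decide whether the numbers pair the arrays, and the main fit assumed no pairing. The change of paxillus_10366 between OM+N+G and OM+N (-0.21) reversed to 0.035 after cyclic loess and 0.0086 after quantile normalization, and was called under neither; the cause was not tested. In all alternatives run, 0 of the 2, 8 of the 14 and 18 of the 21 called changes kept their call. The 4 of the 29 features among the dimmest 25% could not be fitted under that filter.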
